A study of Mus musculus with 9 samples.

Results

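The genes of the NF-κB subunits and of their feedback inhibitors were followed in HPC7 cells, an established mouse line of blood progenitors that depends on stem cell factor. The group comprised 10 genes of the 27179 in the count table, found by their gene identifiers. They were the DNA-binding subunit genes Nfkb1, Nfkb2, Rel, Rela and Relb, the IκB family genes Nfkbia, Nfkbie, Nfkbiz and Bcl3, and the ubiquitin-editing inhibitor Tnfaip3. All 10 passed the filter on low counts, each with counts in every library. RNA was sequenced from 9 libraries in 3 groups of 3, and every group had received the retroviral vector MSCV-IRES-GFP, whose viral promoter drives the insert together with a green fluorescent protein. The empty vector group carried no gene (MIG-0), the wild-type group carried wild-type Snai1 (MIG-wt), and the mutant group carried Snai1 cDNA with a phenylalanine to alanine change at residue 5 (MIG-MUT). That change impairs the contact of Snai1 with the histone demethylase Lsd1. All cells grew in RPMI with 10% FCS, 0.05 mM 2-mercaptoethanol and 100 ng/ml mouse stem cell factor, and were sorted for GFP 1 week after transduction. Nothing in the labels tells if a replicate was its own transduction or culture, so p-values here cover only library-to-library spread, and that spread may be technical.

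NF-κB factors are dimers of proteins that share a Rel homology domain. In resting cells IκB proteins hold the dimers in the cytoplasm, and a kinase complex activated by cytokine or microbial receptors marks the IκB for destruction, which frees the dimer to enter the nucleus. The freed factor switches on inflammatory genes of myeloid cells and also its own brakes, among them Nfkbia and Tnfaip3, so that the signal ends. Snai1 is a zinc finger repressor that recruits Lsd1 through its amino end.

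Promoter sequence of Nfkbia, Nfkbie, Tnfaip3 and Nfkb2 is shown because these genes differed with wild-type Snai1, Nfkbie lower and the others higher. κB sites are the DNA letters that NF-κB dimers read. RefSeq promoter windows on GRCm38.p6, from 250 bases before to 50 bases after the annotated start, were matched for 7 of the 10 genes, in 10 windows. Nfkb1, Relb and Nfkbiz had no entry. The windows were searched on both strands for the κB consensus, and for the Snail-type E-box CAGGTG. Only bases next to the start that no GENCODE exon of the same gene covers are printed, 5′ to 3′ on the gene's strand, with κB matches in capitals. The first is the Nfkbia window at chr12:55492648-55492897 (minus strand), followed by Nfkbie at chr17:45555450-45555699 (plus strand), Tnfaip3 at chr10:19015411-19015544 (minus strand) and Nfkb2 at chr19:46305445-46305694 (plus strand), the last before the second of the 3 annotated Nfkb2 starts and inside an intron of longer Nfkb2 transcripts.
Nfkbia: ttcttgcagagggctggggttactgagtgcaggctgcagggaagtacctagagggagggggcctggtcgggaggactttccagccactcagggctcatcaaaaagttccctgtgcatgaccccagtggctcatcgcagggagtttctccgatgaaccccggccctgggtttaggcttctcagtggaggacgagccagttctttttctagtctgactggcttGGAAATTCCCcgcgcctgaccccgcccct
Nfkbie: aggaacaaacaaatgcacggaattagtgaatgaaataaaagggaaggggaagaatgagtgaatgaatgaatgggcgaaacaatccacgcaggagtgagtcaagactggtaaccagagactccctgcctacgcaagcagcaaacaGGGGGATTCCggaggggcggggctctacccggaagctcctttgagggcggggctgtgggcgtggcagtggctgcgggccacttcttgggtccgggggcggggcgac
Tnfaip3: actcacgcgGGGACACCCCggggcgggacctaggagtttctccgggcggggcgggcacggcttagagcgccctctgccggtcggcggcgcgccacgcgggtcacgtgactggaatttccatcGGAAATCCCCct
Nfkb2: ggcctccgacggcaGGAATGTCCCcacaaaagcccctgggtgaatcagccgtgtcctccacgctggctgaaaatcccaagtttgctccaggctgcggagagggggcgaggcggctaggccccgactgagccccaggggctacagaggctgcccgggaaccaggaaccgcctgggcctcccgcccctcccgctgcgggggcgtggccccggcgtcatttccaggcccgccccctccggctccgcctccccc

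A κB match was found in the windows of 6 of the 7 genes with an entry, against 9.55% of 27025 genes in the same table. Nfkbia held GGAAATTCCC 29 to 20 bases before its start, and Nfkbie held GGGGGATTCC 106 to 97 bases before its start. Tnfaip3 had matches at 125 to 116 and 12 to 3 bases before its first start. Rel had an overlapping pair, GGGAAATCCC and GGAAATCCCC, 92 to 82 bases before its start, and Bcl3 had GGGAAGTCCC from 3 to 12 bases after it. All 3 Nfkb2 windows held a match, and those of the second and the third start share GGGACTTTCC. Rela held none. The E-box CAGGTG occurred in 1 of the 7 genes, Tnfaip3, 140 to 135 bases before its first start, against 22.56% of genes in the table. Such matches describe letters and not binding, which was not measured here.

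The 9 libraries held 18332451 to 20860314 counts. Levels are counts-per-million (CPM) on library sizes scaled by TMM, given as mean ± SD. The test was edgeR's quasi-likelihood test with Benjamini-Hochberg adjustment over 12484 tested genes, and genes under an adjusted p of 0.05 are named as called. Snai1 separated the empty vector libraries from the others, with 0.828 ± 0.205 CPM in the empty vector group, 492 ± 68.5 CPM in the wild-type group and 460 ± 40.2 CPM in the mutant group. Gene counts cannot show which libraries carry the residue 5 change. Kdm1a, which encodes Lsd1, was at 201 ± 1.21, 201 ± 7.55 and 199 ± 2.0 CPM. The 10 progenitor markers summed to 7850 to 9470 CPM in every library, with none at 0. With wild-type Snai1 3 of them were called higher and 4 lower, among them Lmo2 (1.01, SE 0.07), Runx1 (-0.95, SE 0.07) and Myb (-0.67, SE 0.07). Markers of fibroblasts stayed at or under 0.1 CPM in sum. Wild-type replicate 1 stood apart from the other wild-type libraries, with a chi-square per degree of freedom of 47.2 and 55.9 against them and 5.35 between those. Empty vector replicate 1 also stood apart, with 73.4 and 71.7 against 5.00. In it 1 gene (gene 100861531), without a symbol in the annotation used here, took 3.62% of the counts. Without that gene the values were 21.3 and 23.3 against 4.99. Where leaving out one of these libraries alters a call of the 10 genes, the value without it is given.

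The question of the first comparison is what wild-type Snai1 changes in these progenitors. With wild-type Snai1 7 of the 10 genes rose and 1 fell, while 25.2% of all tested genes were called higher and 24.3% lower. Relb, Nfkb1, Nfkb2 and Rela rose among the subunits, and Nfkbiz, Nfkbia and Tnfaip3 among the inhibitors. Nfkbie fell, and neither Rel nor Bcl3 was called. For 8 of the 10 genes all wild-type libraries lay outside the range of the empty vector libraries, as for 56.6% of tested genes. The median log2 fold change was 0.48 over the 10 genes and -0.00 over all tested genes, and the median size of the change was 0.54 against 0.29. No test was made of the group as a whole.

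**Figure D1:**
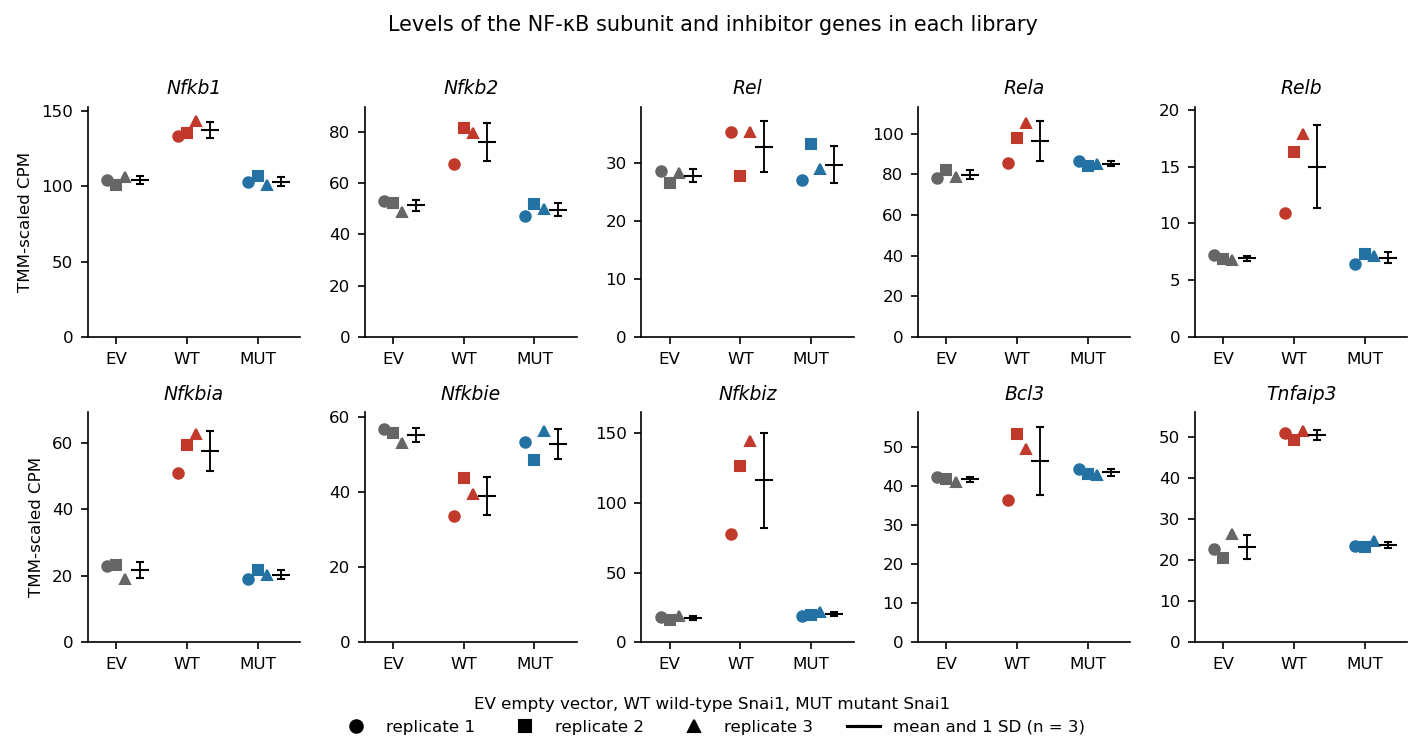
Levels of the 10 genes in TMM-scaled CPM (vertical axes, each from 0) in the 3 empty vector (EV), 3 wild-type (WT) and 3 mutant (MUT) libraries, with a marker shape for each replicate and the mean with 1 SD beside them. Nfkbiz reached 77.7 to 144 CPM in the wild-type libraries and 15.8 to 22.0 CPM in all others, and Nfkbie was lowest in the wild-type libraries. The wild-type ranges of Rel and Bcl3 overlapped those of the empty vector and of the mutant.

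Among the subunits, Relb had the highest fold change. RelB pairs mainly with the Nfkb2 product in the slower, non-canonical arm of the pathway. The gene (gene 19698, chr7:19606217-19629438) was at 7.18, 6.84 and 6.76 CPM in empty vector replicates 1 to 3, and at 10.9, 16.3 and 17.9 CPM in the wild-type libraries. Wild-type replicate 1 was the lowest of its group and still above every control. From means of 6.93 ± 0.222 and 15.0 ± 3.66 CPM (SD, n = 3) the fit gave a fold of 2.16 with a 95% interval of 1.67 to 2.81, a log2 fold change of 1.11 (SE 0.17) and an edgeR adjusted p of 0.000376. A larger rise was seen for 6.3% of tested genes.

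Nfkb2 encodes the precursor that is cut to give RelB's partner (gene 18034, chr19:46300994-46312400). It was at 53.1, 52.1 and 48.9 CPM with empty vector and at 67.6, 81.3 and 79.5 CPM with wild-type Snai1, so the groups did not overlap. Its log2 fold change was 0.57 (SE 0.08), a fold of 1.48 with an interval of 1.31 to 1.68 and an edgeR adjusted p of 0.000218. Reads of Nfkb2 are uncertain, since its exons share 299 bases with Psd and 531 bases with AC114539.1 on the opposite strand and the strand setting of the counting is not given in the sources used here.

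Nfkb1 and Rela encode the parts of the classical dimer. Nfkb1 (gene 18033, chr3:135584655-135691969) was at 104, 101 and 106 CPM with empty vector against 133, 135 and 143 CPM with wild-type Snai1. The wild-type libraries lay close together, and the log2 fold change of 0.40 (SE 0.05, edgeR adjusted p 0.000136) was a fold of 1.32 with an interval of 1.22 to 1.43. Rela (gene 19697, chr19:5637442-5648134) was at 78.3, 82.2 and 78.8 CPM against 85.7, 97.9 and 105 CPM. The groups did not overlap, but wild-type replicate 1 lay near the controls, and the log2 fold change was 0.27 (SE 0.07, edgeR adjusted p 0.0108), a fold of 1.21.

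Rel encodes c-Rel, the subunit most tied to blood and immune cells (gene 19696, chr11:23736847-23770969). It was at 28.7, 26.6 and 28.4 CPM with empty vector and at 35.5, 27.8 and 35.4 CPM with wild-type Snai1. Wild-type replicate 2 lay within the control range, and the log2 fold change of 0.24 (interval -0.01 to 0.48) was not called (edgeR adjusted p 0.0976). Without that library the value was 0.35, with an edgeR adjusted p of 0.0164.

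The inhibitors held both the largest rise and the only fall among the 10 genes. Nfkbiz encodes IκBζ, a nuclear member of the family that acts with NF-κB on secondary response genes (gene 80859, chr16:55811375-55838954). Its level was 18.2, 15.8 and 18.7 CPM with empty vector and 77.7, 126 and 144 CPM with wild-type Snai1. Every wild-type library was more than 4 times the highest control, and they differed among themselves by a ratio of 1.85 between highest and lowest. The means of 17.6 ± 1.51 and 116 ± 34.1 CPM (SD, n = 3) gave a fold of 6.59 with an interval of 4.84 to 8.97, a log2 fold change of 2.72 (SE 0.20) and an edgeR adjusted p of 6.37e-06. Only 1.87% of tested genes had a larger rise.

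Nfkbia encodes IκBα, the inhibitor that resynthesis brings back first after a stimulus (gene 18035, chr12:55489409-55492647). It was at 22.9, 23.4 and 19.0 CPM with empty vector, and at 50.9, 59.3 and 62.5 CPM under wild-type Snai1. The groups were far apart, with means of 21.8 ± 2.41 and 57.6 ± 6.02 CPM (SD, n = 3). The fold was 2.64 with an interval of 2.25 to 3.11, on the log2 scale 1.40 (SE 0.11, edgeR adjusted p 3.36e-06).

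Nfkbie encodes IκBε, a second cytoplasmic inhibitor with slower kinetics (gene 18037, chr17:45555700-45563169). Its level went the other way, from 57.0, 55.9 and 53.2 CPM with empty vector to 33.6, 43.9 and 39.5 CPM with wild-type Snai1. All wild-type libraries lay below all controls, and wild-type replicate 1 was the lowest. The log2 fold change was -0.50 (SE 0.10, edgeR adjusted p 0.0016), a fold of 0.705 with an interval of 0.607 to 0.818. Nfkbia and Nfkbie both hold a κB match in the sequences printed above and moved in opposite directions. Whether these matches had a part in either change was not tested.

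Tnfaip3, which removes activating ubiquitin chains upstream of the kinase complex (gene 21929, chr10:19000910-19015410), was at 22.8, 20.5 and 26.3 CPM with empty vector and at 51.1, 49.2 and 51.5 CPM with wild-type Snai1. It was the most even of the genes that rose, with a ratio of 1.05 between its highest and lowest wild-type library. The log2 fold change was 1.12 (SE 0.09, edgeR adjusted p 4.61e-06), a fold of 2.18 with an interval of 1.9 to 2.5.

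Bcl3, a nuclear IκB that works with homodimers of the Nfkb1 and Nfkb2 products (gene 12051, chr7:19808462-19822824), was at 42.5, 41.9 and 41.1 CPM with empty vector. With wild-type Snai1 it was at 36.6, 53.4 and 49.6 CPM, so that replicate 1 lay below and the others above all controls. Its log2 fold change of 0.15 (interval -0.10 to 0.41) was not called (edgeR adjusted p 0.298). Without wild-type replicate 1 the value was 0.30 with an edgeR adjusted p of 0.000538. Its exons share 161 bases with the antisense gene Gm16175, so part of its reads is uncertain.

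Wild-type replicate 1 gave the lowest of the 3 wild-type values for 8 of the 10 genes, replicate 2 for 2 and replicate 3 for 0. Over all tested genes these shares were 43.8%, 25.9% and 30.3%. The spread was widest for Nfkbiz, Relb and Bcl3, whose highest wild-type library was 1.85, 1.64 and 1.46 times the lowest. Immediate-early genes, which many stimuli and cell handling switch on within minutes, also differed among these libraries. Their 10 members summed to 492, 1490 and 2020 CPM in wild-type replicates 1 to 3, to 389 to 528 CPM in the empty vector libraries and to 560 to 902 CPM in the mutant libraries. In wild-type against empty vector 6 of their 9 tested members were called higher and 0 lower (25.2% and 24.3% of all tested genes), with Atf3 at 0 in the empty vector and mutant libraries. Their part in the NF-κB values was not tested. In wild-type replicates 1 to 3 the median immediate-early gene lay 0.46, 2.44 and 2.88 above the controls on the log2 scale.

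Monocyte and macrophage markers also differed in the wild-type group. There they summed to 601, 579 and 868 CPM in replicates 1 to 3, so that replicate 2 was the lowest. Their 10 genes summed to 93.0 to 112 CPM with empty vector, 579 to 868 CPM with wild-type Snai1 and 84.9 to 101 CPM with the mutant. On average Itgam (71.0 CPM) made up most of the empty vector sum, and Lyz2 (406 CPM) most of the wild-type sum. Of 8 tested markers 6 were called higher and 2 lower with the wild type, against 25.2% and 24.3% of all tested genes. The filter favours rises in that count. Clec7a, with 4 counts in all empty vector and 2 in all mutant libraries, could pass it only through the wild-type libraries. The 2 called lower were Itgam, with means of 71.0 and 49.2 CPM, and Fcgr1, with means of 4.63 and 2.43 CPM in empty vector and wild type. Ly86 was at 0 in all wild-type and all mutant libraries and Ms4a7 at 0 in all mutant libraries. The 9 late neutrophil markers summed to 1.65 to 2.84, 58.2 to 135 and 1.65 to 2.75 CPM in the same order. Of 4 tested ones 2 were called higher and 0 lower (25.2% and 24.3% of all tested genes), a count the filter favours. Both genes called, Mmp8 and Lcn2, could pass it only through the wild-type libraries. Mmp8 had 0 counts in the empty vector and mutant groups, and Lcn2 had 13 and 15. With the wild type Lcn2 (83.1 ± 28.8 CPM) and Mmp8 (10.6 ± 9.56 CPM) carried the sum. The other late neutrophil markers had wild-type means of at most 1.21 CPM. Ngp, S100a8, Mmp8 and Retnlg were at 0 with empty vector and with the mutant, and Retnlg at 0 with the wild type. Mast cell markers summed to 2740 to 3110, 3490 to 3800 and 3070 to 3230 CPM. Nearly all of this was Cpa3, with means of 2970, 3610 and 3160 CPM, and the other mast cell markers had group means of at most 0.559 CPM. Erythroid markers summed to 30.4 to 32.7, 13.4 to 16.6 and 33.9 to 38.5 CPM, and lymphoid markers to at most 1.73 CPM. In bulk RNA, a change in the share of cells of a type cannot be told apart from a change in RNA per cell, and the part of these cells in the NF-κB values was not tested.

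The mutant comparison asks which of these changes occur when Snai1 cannot bind Lsd1 well. None of the 10 genes was called in mutant against empty vector by edgeR, and 0.00801% of tested genes were, which is 1 gene, Snai1 itself. That number rested on the libraries in the fit, with 62 genes called without wild-type replicate 1 and 30 with only the 6 libraries compared, and 0 of the 10 among them. By limma-voom 0 of the 10 were called as well. DESeq2 also called 0, but it gave an adjusted p only for Nfkb1 and Rela, so the other genes could not be called by it. At an unadjusted p under 0.05 there were 0 of the 10, with a lowest p of 0.224 from the edgeR fit, and 4.83% of all tested genes.

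In the mutant libraries Nfkbiz was at 19.2, 19.5 and 22.0 CPM, each above all controls, with a log2 fold change of 0.20 and an interval of -0.26 to 0.67. Nfkbia was at 19.0, 21.8 and 20.4 CPM (-0.09, interval -0.34 to 0.15) and Tnfaip3 at 23.6, 23.2 and 24.6 CPM (0.04, interval -0.16 to 0.24), both within or overlapping the control range. These intervals leave out changes of the size seen with the wild type. Nfkbie was at 53.5, 48.6 and 56.4 CPM (-0.07, interval -0.28 to 0.15), and Bcl3 at 44.6, 43.3 and 43.0 CPM (0.06, interval -0.20 to 0.32).

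The subunits gave similar values. Relb was at 6.42, 7.34 and 7.16 CPM with the mutant (0.01, interval -0.38 to 0.40), and Nfkb2 at 47.1, 52.0 and 49.8 CPM (-0.05, interval -0.23 to 0.13). For Nfkb1, at 103, 107 and 101 CPM, the interval of -0.12 to 0.12 was the narrowest of the 10. Rel was at 27.2, 33.3 and 29.0 CPM (0.10, interval -0.15 to 0.34), and Rela at 86.6, 83.9 and 85.1 CPM (0.10, interval -0.07 to 0.26). For 3 genes, Rela, Nfkbiz and Bcl3, every mutant library lay above every control, which is also so, in either direction, for 17.6% of tested genes.

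The direct comparison of wild type and mutant tests the difference between both effects, at similar Snai1 levels. It shares its wild-type libraries with the first comparison and its mutant libraries with the second. Relative to the mutant, 6 genes were higher with the wild type and 1 lower, against 24.5% and 23.4% of all tested genes. For 7 of the 10 genes the groups did not overlap, as for 55.8% of tested genes. Nfkbiz had a log2 fold change of 2.52 (SE 0.20, edgeR adjusted p 1.03e-05), Nfkbia 1.50 (SE 0.11, adjusted p 2.2e-06), Relb 1.10 (SE 0.17, adjusted p 0.000409) and Tnfaip3 1.09 (SE 0.09, adjusted p 5.99e-06). The values of Nfkb2 and Nfkb1 were 0.62 (SE 0.08, adjusted p 0.000132) and 0.40 (SE 0.05, adjusted p 0.000137). The value of Nfkbie, lower in the wild type, was -0.44 (SE 0.10, edgeR adjusted p 0.00383).

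The 3 genes without a call against the mutant were Rela, Rel and Bcl3. For Rela the value was 0.18, with an unadjusted interval of 0.01 to 0.34 and an edgeR adjusted p of 0.0697. Its call depended on the setting, with an adjusted p of 0.0497 in DESeq2 and of 0.000871 in edgeR without wild-type replicate 1. Rel gave 0.14 (interval -0.10 to 0.39, adjusted p 0.315) and Bcl3 0.09 (interval -0.16 to 0.35, adjusted p 0.535). Without wild-type replicate 1 Bcl3 was called here too, at 0.24 with an edgeR adjusted p of 0.00333.

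**Figure D2:**
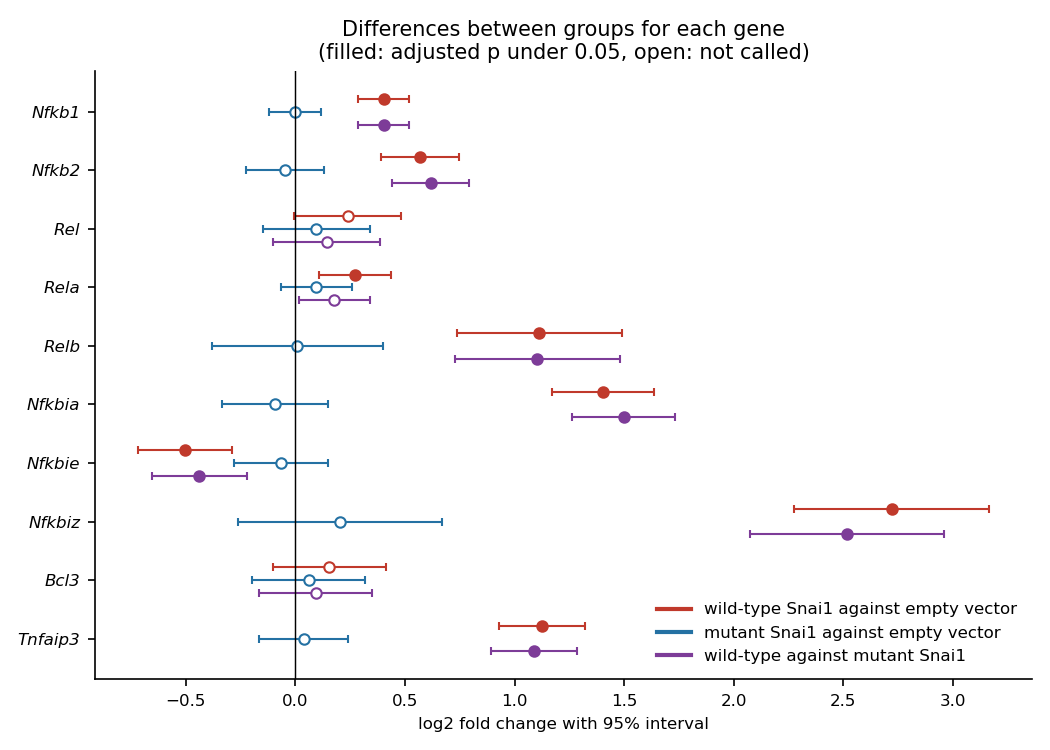
Log2 fold changes of the 10 genes with their 95% intervals (horizontal axis) in the 3 comparisons, filled where the adjusted p was under 0.05 and open where it was not. All 10 mutant values lie between -0.09 and 0.20, while the wild-type values run from -0.50 for Nfkbie to 2.72 for Nfkbiz.

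Levels of different genes were compared per kilobase of the gene length in the deposited table. With empty vector the order began with Rela at 29.4 ± 0.778, Nfkb1 at 25.2 ± 0.664, Nfkbie at 22.9 ± 0.807 and Bcl3 at 22.8 ± 0.38 CPM per kilobase; the ranges of Nfkbie and Bcl3 overlapped. Nfkb2 followed at 15.6 ± 0.656, Nfkbia at 13.8 ± 1.52 and Rel at 10.8 ± 0.425. Lowest were Tnfaip3 at 5.05 ± 0.644 and Nfkbiz at 4.53 ± 0.39, which overlapped, and Relb at 3.14 ± 0.101 CPM per kilobase (SD, n = 3). The subunits of the classical dimer therefore headed the list in the control cells, and Tnfaip3, Nfkbiz and Relb stood at its end.

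With wild-type Snai1 Nfkbia moved from place 6 to place 1, at 36.5 ± 3.82 CPM per kilobase, and Nfkbiz from place 9 to place 4, at 29.9 ± 8.8. Rela at 35.6 ± 3.67, Nfkb1 at 33.2 ± 1.27, Bcl3 at 25.4 ± 4.79 and Nfkb2 at 23.1 ± 2.25 filled the other upper places. Each of the first 6 genes overlapped its neighbour in that order, so the order among them was not resolved. Nfkbie dropped to place 7 at 16.1 ± 2.13, above Rel at 12.7 ± 1.71, Tnfaip3 at 11.0 ± 0.265 and Relb at 6.8 ± 1.66 CPM per kilobase. In the mutant libraries Rela led at 31.4 ± 0.495 and Relb was last at 3.16 ± 0.22. There Bcl3 stood before Nfkbie, and Nfkbiz before Tnfaip3, the reverse of the control order, with ranges that overlapped in the controls. Nfkbiz and Tnfaip3 overlapped in the mutant libraries as well, so their order was not resolved in either group.

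**Figure D3:**
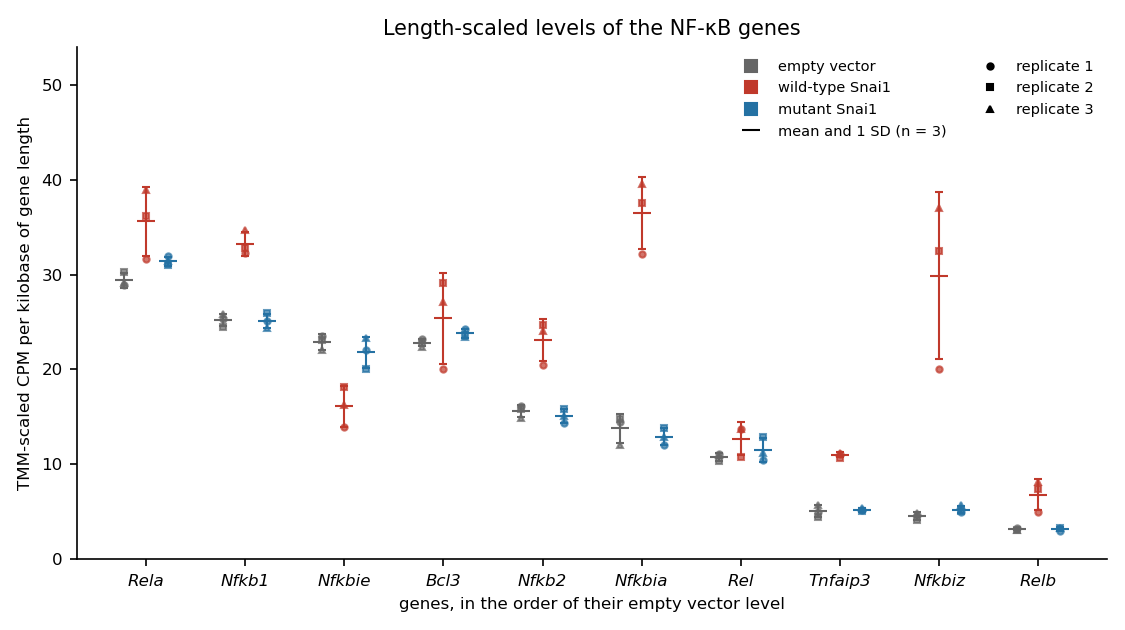
Levels per kilobase of gene length in TMM-scaled CPM (vertical axis) for the 10 genes in the order of their empty vector level, with a point for each library and the mean with 1 SD of each group of 3. Nfkbia and Nfkbiz rose past most of the other genes in the wild-type libraries, to 36.5 and 29.9, while the mutant points lay on or near the empty vector points.

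The balance within the family was described by ratios of these length-scaled levels, which were not tested. Nfkbia over Nfkbie was 0.616, 0.642 and 0.548 with empty vector, 2.32, 2.07 and 2.43 under wild-type Snai1, and 0.543, 0.689 and 0.554 under the mutant. Of this pair Nfkbie was thus the more abundant transcript in the 6 libraries without wild-type Snai1, and Nfkbia in the 3 with it. For the nuclear IκB genes, Nfkbiz over Bcl3 was 0.199 ± 0.0183, 1.16 ± 0.187 and 0.22 ± 0.0204 in the same order (SD, n = 3). The 5 subunit genes summed to 84.1 ± 0.443 CPM per kilobase with empty vector, 111 ± 8.2 with the wild type and 86.4 ± 2.21 with the mutant. Of that sum Relb made up 3.73% ± 0.1, 6.05% ± 1.11 and 3.66% ± 0.195, Rela 35.0% ± 1.01, 31.9% ± 1.03 and 36.4% ± 1.46, and Nfkb1 29.9% ± 0.827, 29.9% ± 1.23 and 29.1% ± 0.487. The shares of Nfkb2 were 18.5% ± 0.699, 20.7% ± 1.18 and 17.5% ± 0.491.

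The rest of the pathway was described from 5 lists, each by its counts and median. Over all tested genes 25.2% were called higher and 24.3% lower with wild-type Snai1, with a median of -0.00. Among 18 other brakes on NF-κB, 10 were higher and 2 lower (25.2% and 24.3% over all genes), with a median log2 fold change of 0.24. With upper-quartile scaling, no scaling, only the 6 libraries compared, or without empty vector replicate 2, 6 of them were called higher. The TNIP family gene Tnip3, whose protein binds the Tnfaip3 product, rose by 2.28 (SE 0.31, edgeR adjusted p 0.000303), to 43.8, 21.1 and 19.1 CPM from 4.58 to 6.44 CPM. The ribonuclease gene Zc3h12a, which degrades inflammatory transcripts, rose by 1.52 (SE 0.24), and Irak3, an inactive kinase that blocks Toll-like receptor signals, rose by 1.29 (SE 0.22). Pdlim2, a ubiquitin ligase that ends nuclear Rela activity, fell by 1.22 (SE 0.12), from 34.9 to 38.0 CPM to 13.3 to 19.1 CPM, with an edgeR adjusted p of 1.59e-05. The other gene lower was Tnip2 (-0.63, SE 0.13, adjusted p 0.00214), named like all genes outside the rule after its value was seen.

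Of 29 kinases and adaptors 10 were higher and 9 lower (25.2% and 24.3% over all genes), with a median of -0.06. Card9, called higher, had 12 counts in all empty vector and 12 in all mutant libraries. It could pass the filter only through the wild-type libraries, which favours a rise in this count. Malt1, a protease of antigen receptor signals, fell by 0.49 (SE 0.06, edgeR adjusted p 5.93e-05). Ikbke, a kinase related to the IκB kinases, rose by 1.78 (SE 0.20, adjusted p 5.72e-05), and Ripk1, a hub of tumour necrosis factor receptor signals, rose by 0.58 (SE 0.07, adjusted p 6.49e-05).

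Of 20 activating receptors 16 were tested, and 11 of these were higher and 0 lower (25.2% and 24.3% over all genes), with a median of 1.18. A receptor silent in the controls could pass the filter only through the wild-type libraries, which favours rises in the count and the median of this list and of the ligands and targets. Tlr7, a sensor of single-stranded RNA, went from 1.75, 2.12 and 2.36 CPM to 65.9, 30.5 and 32.0 CPM, a log2 fold change of 4.36 (SE 0.34, edgeR adjusted p 7.14e-06). Cd14, a co-receptor of Toll-like receptors, went from 0.322 to 0.771 CPM to 28.7 to 47.0 CPM. The tumour necrosis factor receptor family gene Tnfrsf9 rose by 2.39 (SE 0.27), and Il1rl1, the receptor of interleukin 33, reached 188 to 211 CPM from 61.3 to 72.1 CPM.

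Of 13 ligands 6 were tested, with 3 higher and 3 lower (25.2% and 24.3% over all genes). Tnf, the classical activating cytokine, was already at 41.8, 30.5 and 41.1 CPM in the controls and was at 72.5, 102 and 99.2 CPM with wild-type Snai1, a log2 fold change of 1.27 (SE 0.16, edgeR adjusted p 0.000184). Il1b, which encodes interleukin 1 beta, rose by 4.87 (SE 0.61), to 7.27, 23.1 and 27.5 CPM, and was lowest in wild-type replicate 1. Tnfsf12 rose by 1.63 (SE 0.17), while Ltb, a subunit of the lymphotoxin that drives the non-canonical arm, fell by 1.91 (SE 0.29) to 0.747 to 2.26 CPM. Lta (-1.11, SE 0.35, edgeR adjusted p 0.0204) and Tnfsf14 (-0.36, SE 0.13, adjusted p 0.0431) were also lower, and with DESeq2, without empty vector replicate 3 or without wild-type replicate 2 only 1 ligand was called lower.

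Known target genes of NF-κB had 29 of 39 members tested, of which 23 were higher and 1 lower (25.2% and 24.3% over all genes), with a median of 1.69. The fitted value of Plau, which was at 0 counts in the empty vector group, depends on the prior count. Against a floor of 3 counts per library it was at least 5.72-fold higher, and with Plau at that bound the median was again 1.69. The chemokine Ccl2 was at 57.4, 65.3 and 64.3 CPM in the controls and at 359, 337 and 350 CPM with wild-type Snai1, a log2 fold change of 2.48 (SE 0.07, edgeR adjusted p 6e-09). Ccl3 and Ccl4, chemokines that attract monocytes, went from at most 0.425 and 1.13 CPM to at least 23.6 and 11.5 CPM. Nos2, the inducible nitric oxide synthase, rose by 3.67 (SE 0.18). The target called lower was the interferon regulator Irf1 (-0.28, SE 0.09, edgeR adjusted p 0.0263), a call lost without empty vector replicate 1 or 2 and with only the 6 libraries compared. The chemokines and Nos2 are also products of mature myeloid cells. Marker sums of these cells were higher in the wild-type libraries, with 2 monocyte markers called lower, as given above. The part of such cells in the target values was not tested.

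With the mutant 0 genes of the 5 lists were called by edgeR. The list medians were -0.01 for the other brakes, -0.02 for kinases and adaptors, 0.03 for receptors, 0.08 for ligands and 0.11 for targets, and 1, 1, 2, 0 and 6 of their genes had an unadjusted p under 0.05. Ccl2 stood closest to a call, at 86.2, 81.0 and 93.1 CPM and a log2 fold change of 0.48 (SE 0.07, edgeR adjusted p 0.151). It was called by DESeq2 (adjusted p 5.89e-06), by edgeR without wild-type replicate 1 (0.0022) and by edgeR on the 6 libraries compared (0.00374). Against the mutant, the wild type had 9 other brakes higher and 2 lower, 11 and 9 kinases and adaptors, 11 and 1 receptors, 3 and 1 ligands, and 20 and 1 targets, where 24.5% of all tested genes were higher and 23.4% lower. The receptor lower than in the mutant was Il1rap (-0.54, SE 0.20, edgeR adjusted p 0.0455), a call that 12 of the 18 alternatives did not make.

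**Figure D4:**
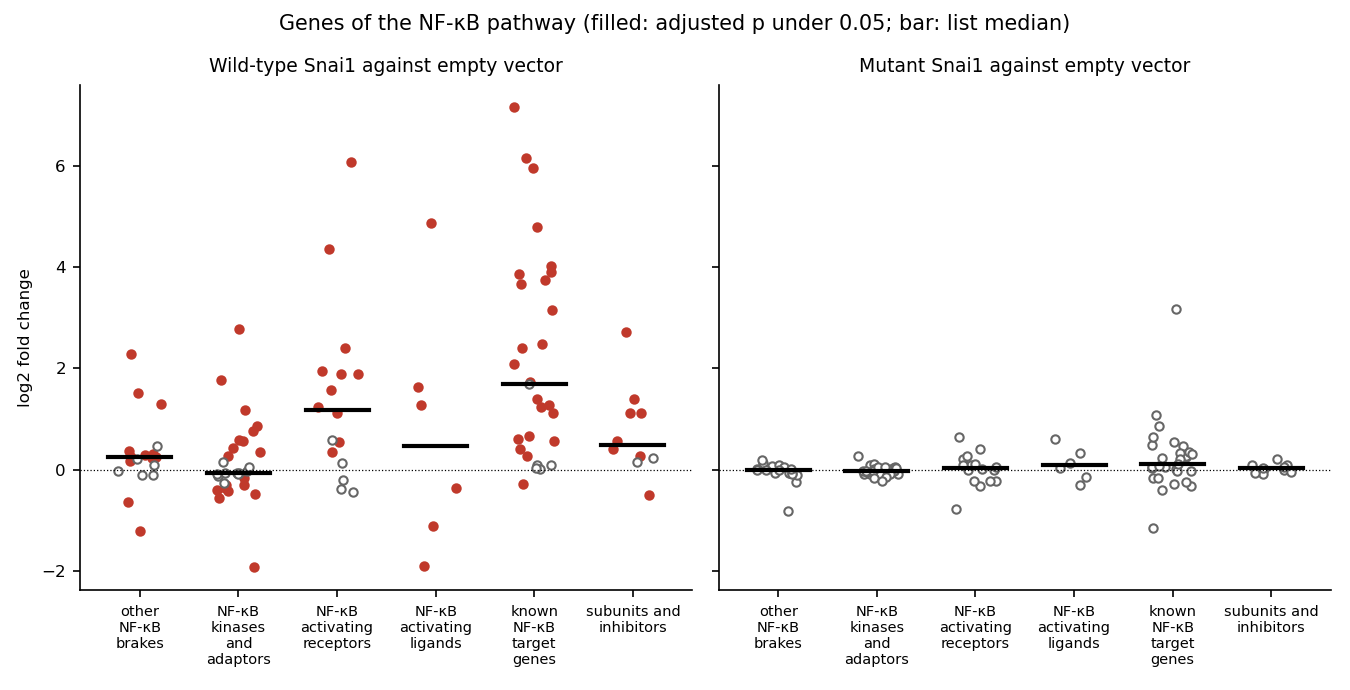
Log2 fold changes (vertical axis) of the tested genes of the 5 pathway lists and of the 10 subunit and inhibitor genes, with wild-type Snai1 on the left and mutant Snai1 on the right, filled where called, and a bar at each list's median. With the wild type the target and receptor medians are 1.69 and 1.18, which the filter on low counts favours, and no point is filled with the mutant.

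Finally, for each gene, genes whose log2 CPM followed it most closely over the 9 libraries were taken from 10743 genes whose mean reached 1 CPM. The wild-type libraries form a cluster of their own, so any gene with a clear wild-type difference reaches a high Pearson r, which is given as a description only. Relb was closest to Furin (r 0.996), which went from 193 to 841 CPM, and to the chromatin reader Brd2 (0.996). Nfkb2 was closest to Tada2b (0.998) and to the kinase gene Ikbke (0.998) from the list above, and Nfkb1 to Sp100 (0.994) and Edem1 (0.993). Nfkbiz was closest to Nt5dc3 (0.998) and to Vcl (0.997), which encodes vinculin, Nfkbia to Wfdc17 (0.997) and Epb41l1 (0.996), and Tnfaip3 to Zfp91 (0.998) and Cd300lf (0.994). Nfkbie, the gene that fell, was closest to Ica1l (0.989) and B9d2 (0.981). Rela had Orc1 (0.986) and Sec61a1 (0.984), Bcl3 had Akr1b10 (0.973) and Dennd4b (0.972), and Rel had the lowest r of the 10, with Zfp658 (0.866).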

How the data were processed

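RNA of HPC7 cells with empty vector, with the mutant or with wild-type Snai1, 3 of each, was made into TruSeq stranded mRNA libraries, per the labels' protocols. The authors deposited raw counts per gene with a gene length, made with featureCounts on mm10, per the submitters' processing notes, which list edgeR 3.15.0 and limma 3.29.12 as well. The aligner, annotation, strand setting and featureCounts version are not given in the sources used here. Of 27179 identifiers, RefSeq (GRCm38.p6) named 25275 and GENCODE M21 18 more, and 1886 had no symbol.

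Genes were filtered with filterByExpr, scaled with TMM and fitted over all 9 libraries with edgeR 4.0.16 (R 4.3.3, quasi-likelihood, robust), which left 12484 genes. The fit was tested on simulated data. P-values were adjusted by the Benjamini-Hochberg method. Intervals are 95% and unadjusted. A floor of 3 counts was 0.1438 to 0.1636 CPM, and the 10 genes had 126 to 2864 counts per library, so sampling error was small for most of them, and largest for Relb. Such counting error takes no account of PCR copies. The alternatives were RLE, upper-quartile or no scaling, no filter, DESeq2 1.42.0, limma-voom (limma 3.58.1), no robust estimation, a replicate block, only the 6 libraries compared, and leaving out each library.

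The 10 genes and the lists were chosen with earlier results of these data known. Named were the 10 genes, Snai1 and Kdm1a, up to 4 tested genes of each pathway list with the smallest adjusted p in wild type against empty vector, and the 2 genes most like each of the 10. From 194 list genes, 1 (Hbb-bt) was not matched. Some genes that this rule names are not reported here.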

Additional observations from a re-analysis of the deposited data

How the results depend on the processing

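Across 18 alternatives the 8 genes called with wild-type Snai1 and the 7 called against the mutant kept their call and direction in all 144 and 126 values. Calls gained were Rel without wild-type replicate 2, Rela against the mutant with DESeq2 or without wild-type replicate 1, and Bcl3 in both comparisons without wild-type replicate 1, with the values given above. No alternative moved the median of all genes by over 0.1 on the log2 scale.

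In mutant against empty vector 0 of the 10 genes were called under any alternative, though DESeq2 gave an adjusted p only for Nfkb1 and Rela. The number of genes called over the whole table, 1 in the fit reported, was 8 with DESeq2, 2 with limma-voom, 30 with only the 6 libraries compared, and 1 to 62 with single libraries left out, the highest without wild-type replicate 1. Uncalled values near 0 changed sign. Nfkb1 in mutant against empty vector gave 0.0015 with upper-quartile scaling, 0.0188 without scaling and 0.0027 with only the 6 libraries compared. With single libraries left out it ran from -0.0237 to 0.0189, Relb in the same comparison from -0.0286 to 0.0653, Tnfaip3 from -0.0448 to 0.14, and Bcl3 in wild type against mutant from -0.0159 to 0.24. The cause was not tested.

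The replicate numbers are not said to pair libraries. After removal of group means, same-numbered libraries of different groups correlated at -0.087 to 0.21, with 2 of 9 pairs over 0.1, and other pairs at -0.165 to 0.117, with 1 of 18 over 0.1. A library of its own number was the best match for 4 of 9 libraries. With the replicate number as a block 8, 0 and 7 of the 10 genes were called in the 3 comparisons, as without it, and 5886, 1 and 5732 genes over the whole table.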

Other observations

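Relb and Bcl3 lie on the same stretch of mouse chromosome 7, with 179.0 kb and 13 annotated genes between them, 10 of them protein-coding. Of these, 3 were tested with wild-type Snai1 against empty vector. Clptm1 had a log2 fold change of 0.45 (SE 0.05, edgeR adjusted p 4.52e-05), Apoe 0.66 (SE 0.33, adjusted p 0.129) and Tomm40 0.21 (SE 0.08, adjusted p 0.0506). These genes were chosen for their position, after the values of Relb and Bcl3 were seen.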
